A study of Mus musculus with 12 samples.

Results

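The 4 arrays titled as replicate 3, 1 from each treatment group, were compared with the 8 arrays titled as replicates 1 and 2, out of 12 arrays in all. The arrays were taken by the replicate number in their titles, and the comparison was chosen by the measured log2 intensities of these same arrays, in which replicate 3 was already known to differ. Differences between replicate 3 and its partners are therefore given as descriptions, with no test. All arrays held RNA of mouse embryonic stem cells, a cultured form of the pluripotent cells of the early embryo. The medium of every group held LIF, the cytokine that sustains self-renewal, and 250 nM PD173074, which blocks the receptors of fibroblast growth factors. The 4 groups were untreated cells titled as 0 h, cells given 250 nM 4OHT for 6 h, cells given 1 µM MG132 for 30 min and a further 6 h, and cells given MG132 for 30 min and then MG132 with 4OHT for 6 h. MG132 blocks the proteasome, and 4OHT is a ligand of the oestrogen receptor often used to activate fusion proteins that carry part of it. No genotype, line, clone, passage or sex of the cells was given in the sources used here, and no fusion protein was named. The design text calls the arrays biological replicates, but no label says that arrays with the same number came from the same culture, so any p-value below measures the spread between these samples.

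Levels below are log2 processed intensity minus the 75th percentile of the same array. A difference is the replicate 3 level minus the mean of replicates 1 and 2 of the same treatment group, averaged over the 4 groups, with its standard error (SE, n = 4 against 8 arrays). The SE takes the arrays as independent. If the replicate 3 arrays came from the same culture, it does not measure the spread between cultures. A gene was called set apart when the replicate 3 array lay beyond both partners, in the same direction, in all 4 groups. It was called set apart at 2-fold when the difference was also at least 1 on the log2 scale.

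Embryonic stem cell cultures are mixtures. A small and changing share of cells passes through a state that resembles the 2-cell embryo, marked by the Zscan4 genes and their companions, and other cells lean towards primitive endoderm, the lineage of the yolk sac, marked by Gata6. Imprinted genes such as Mest are expressed mainly from the chromosome of 1 parent, and the DNA methylation that silences the other copy can be gained or lost in culture. Stem cell cultures can also gain or lose stretches of chromosomes as they are passaged. On these arrays fewer cells of a type and less RNA per cell cannot be told apart, and neither DNA methylation nor DNA copy number was measured.

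The replicate 3 arrays were set apart in 2994 of 28579 genes in the higher direction (10.5% of genes) and in 1993 in the lower direction (6.97%). At 2-fold, 158 genes were higher (0.553%) and 117 lower (0.409%). These shares are over all 28579 genes, of which 16616 had a symbol, while the lists below hold named genes. The same rule applied to the replicate 1 arrays set apart 935 genes in either direction (28 at 2-fold), and applied to the replicate 2 arrays it set apart 760 (33 at 2-fold), against 4987 (17.4%) for replicate 3. Of the 42 2-fold genes with several probes, 39 had all their probes in the same direction. With the genes divided by mean level into 4 bins of like size, the share set apart was 6.05% in the dimmest bin and 25.3% in the brightest, while 106 of the 275 2-fold genes lay in the dimmest bin and 12 in the brightest. Leaving out an array leaves fewer arrays that have to lie apart: without 4OHT replicate 3 the counts were 4944 higher and 3570 lower, and without MG132 replicate 3 there were 191 lower genes at 2-fold. The median difference over all genes was 0.04.

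Replicate 2 lay on the same side of replicate 1 in all 4 groups for 3263 genes (11.4%), a looser rule than the one above, since it sets 1 array against 1. limma called 0 of 28579 genes between replicate 2 and replicate 1 (0% of genes) at an adjusted p of 0.05, with 686 genes (2.4%) under an unadjusted p of 0.05 and a lowest adjusted p of 0.998. For each array the deviation of every gene from its group mean was then correlated with that of the arrays of other groups. Pairs of replicate 3 arrays correlated at 0.05 to 0.34 (median 0.25, 6 pairs), pairs of replicate 1 arrays at -0.08 to 0.13, pairs of replicate 2 arrays at 0.06 to 0.12, and pairs with different numbers at -0.25 to 0.17 (36 pairs). These correlations run across genes, which are not independent, and the 3 deviations of a group sum to 0, so they are descriptions only.

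**Figure D1:**
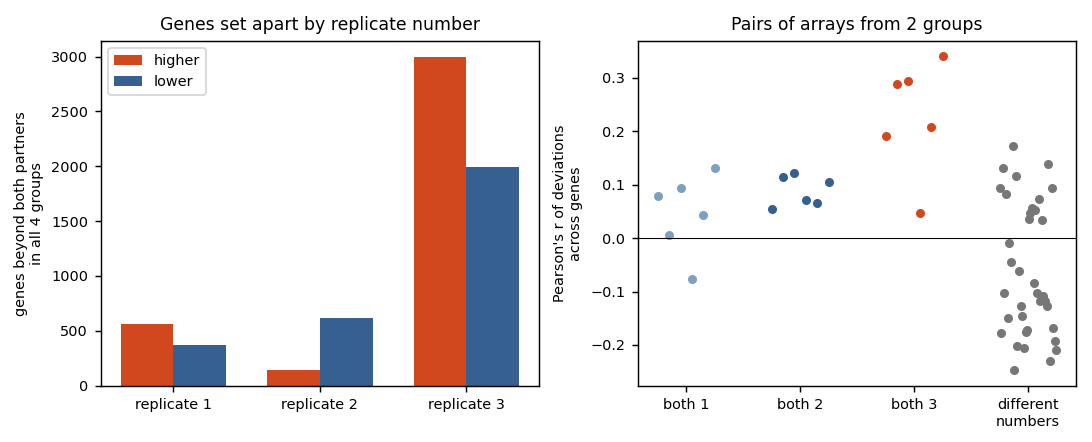
Left, number of genes (y axis) for which the array of a given replicate number lay above (orange) or below (blue) both partners in all 4 treatment groups; right, Pearson's r across genes (y axis) of the deviations from the group means for each pair of arrays from different groups, by replicate number. Replicate 3 has 2994 higher and 1993 lower genes, and 5 of its 6 pairs lie over 0.1.

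The replicate 3 arrays lay at 4 different positions on 2 slides, 3 of them on the same slide as both partners; MG132 replicate 3 was on slide 2 and MG132 replicates 1 and 2 were on slide 1. Between 49.5% and 63.2% of probes lay well above background on each of the 12 arrays. In exact two-sided permutation tests that relabelled the 3 arrays within each group (81 relabellings, smallest possible p 0.0123), replicate 3 differed from its partners by 1.52 percentage points in probes well above background (exact p = 0.543, higher in 2 of 4 groups). The 75th percentile differed by -4.64 intensity units (exact p = 0.951), the median local background by 0.438 units (exact p = 0.556) and the spike-in signal by 0.19 on the log2 scale (exact p = 0.444); adjusted over the 4 measures, the lowest p was 0.741. 4OHT replicate 1 had the lowest spike-in signal, 9.08, against 10.03 to 10.64 on the others, and the arrays of the 4OHT group correlated least with each other (0.974 to 0.980 across genes). Pluripotency factors were detected on all 12 arrays: Pou5f1, the core pluripotency factor Oct4, had a mean level of 5.99 on the replicate 3 arrays and 5.90 on the others, and Sox2, its partner, 4.15 and 4.27.

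Mest, the gene with the largest difference, encodes a membrane enzyme of the alpha/beta hydrolase family and is expressed from the paternal chromosome. Replicate 3 read 1.75 in untreated cells, 1.96 with 4OHT, 1.70 with MG132 and 2.04 with both compounds. Replicates 1 and 2 read -4.52 and -3.84 in untreated cells, -5.73 and -4.36 with 4OHT, -5.09 and -4.81 with MG132, and -4.54 and -3.57 with both. The 4 replicate 3 arrays thus lay within 0.34 of each other, and all of them lay above all 8 partners, of which 6 were well above background. The difference was 6.42 ± 0.31, or 85.7-fold; the fold depends on partner signals near background, and with normexp background correction, which adds an offset to dim signals, the log2 difference was 4.28. RefSeq lists 3 start sites for Mest in the GRCm38.p6 assembly. A pair of them lie 3 bases apart in a CG-rich stretch, and the promoter of the upstream one is shown here (chr6:30737800-30738099, plus strand, 250 bases before to 50 after the start) because the imprint is carried by methylated CG dinucleotides of such promoters; capitals mark its 17 CG.

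Mest: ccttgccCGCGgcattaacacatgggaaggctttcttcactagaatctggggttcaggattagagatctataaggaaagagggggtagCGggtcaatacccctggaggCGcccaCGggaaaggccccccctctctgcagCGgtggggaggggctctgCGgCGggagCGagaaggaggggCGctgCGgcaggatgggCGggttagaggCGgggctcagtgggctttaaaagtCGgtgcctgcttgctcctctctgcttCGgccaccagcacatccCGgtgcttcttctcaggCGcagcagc

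The third start site lies further upstream (chr6:30733256-30733555) and its promoter holds 8 CG; which transcript the probes read was not tested. Among the neighbours of Mest, the carboxypeptidase gene Cpa1 was set apart higher by 1.29 ± 0.39 and Cep41, a cilium gene next to Mest, by 0.23 ± 0.07. Copg2, a neighbouring coat protein gene, was set apart lower (-0.16 ± 0.06). Without 4OHT replicate 3 the Cpa1 difference was 0.66 and that of Cep41 0.15.

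Of 24 measured paternally expressed imprinted genes, Mest was the single gene set apart higher and 4 were set apart lower, with a median of 0.10 (-0.0019 without MG132 replicate 1); the next highest difference, of Inpp5f, was 0.66 ± 1.02 and was not set apart. Kcnq1ot1, the noncoding RNA that silences a cluster of imprinted genes, was among the lower ones (-0.60 ± 0.07). Genes of its cluster lay on both sides: Cdkn1c, a cell cycle inhibitor, differed by -0.40 ± 0.08 and Ascl2, a trophoblast factor, by 0.51 ± 0.13. Of 23 measured maternally expressed genes 3 were set apart higher and 5 lower, with a median of 0.02. H19 (0.42 ± 0.23), its partner Igf2 (0.59 ± 0.16) and Meg3 (0.03 ± 0.07) were not set apart. Among 17 genes that write, read or erase DNA methylation 1 was higher and 2 lower; Dppa3, which shields methylation in the zygote, had the largest difference (-0.87 ± 0.12), and the methyltransferase genes Dnmt3b and Dnmt3l lay at -0.04 ± 0.08 and 0.02 ± 0.07. Of 21 measured germline genes that DNA methylation is known to silence, 3 were higher and 5 lower, including the X-linked homeobox genes Rhox5 at 1.01 ± 0.14, Rhox6 at -0.67 ± 0.10 and Rhox9 at -0.80 ± 0.10. The counts of these lists stand beside 10.5% of all genes set apart higher and 6.97% lower, or 17.4% in either direction.

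The other genes set apart higher by the largest amounts belonged to no single class. Khdc3, an oocyte and embryo gene also known as Filia, read 4.73, 3.54, 2.0 and 1.55 on the replicate 3 arrays of untreated, 4OHT, MG132 and MG132 with 4OHT. Its partners read 3.15 and 3.13, 1.47 and 1.47, 0.30 and 0.27, and -0.03 and 0.17 in the same order. The offset of 1.72 ± 0.09 was thus laid over levels that themselves differed between the treatments. Il34, a cytokine that binds the CSF1 receptor, read 0.93, 0.54, 1.1 and 0.21 on the replicate 3 arrays and between -1.38 and -0.61 on all 8 others (1.74 ± 0.08). Slc4a5, a bicarbonate transporter gene, was similarly even (1.63 ± 0.07), and Inhbb, an activin subunit gene, was higher by 1.63 ± 0.27 with group differences of 1.00 to 2.93. Atp1a4, the sodium pump subunit of sperm, was higher by 2.51 ± 0.23; it read -1.87 and -0.50 on the replicate 3 arrays of untreated and 4OHT cells, against -4.43 to -3.72 in their partners.

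Further dim genes of this class included Cyp2b10 (1.79 ± 0.29) and its neighbour Cyp2b9 (1.58 ± 0.12), which encode similar cytochrome P450 enzymes. Habp2, a plasma serine protease gene (1.73 ± 0.20), Nostrin, an endothelial trafficking gene (1.68 ± 0.21), Pdzd3 (1.56 ± 0.24), which encodes a scaffold of membrane proteins, and the uncharacterised Gm17745 (1.55 ± 0.22) were each detected on 2 to 4 of the 8 partner arrays, so the sizes of their differences rest on signals near background. With normexp they were 0.44, 0.42, 0.42 and 0.31 in this order, and those of Cyp2b10 and Cyp2b9 were 0.60 and 0.56. Wdr63 and the odorant receptor gene Olfr331 were well above background on 3 of 4 replicate 3 arrays and on 0 of 8 partners, so they were at least 1.68-fold and at least 1.99-fold higher. Probes were kept when well above background on at least 3 of 12 arrays. Both genes passed only through the replicate 3 arrays, where they were high, so their direction is no independent result. The bounds set the mean of the replicate 3 arrays against the dimmest signal well above background. Rragd, a lysosomal GTPase gene, met the rule with 1.54 ± 1.19, but MG132 replicate 1 alone was low (-6.76), and without that array the difference was 0.64.

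**Figure D2:**
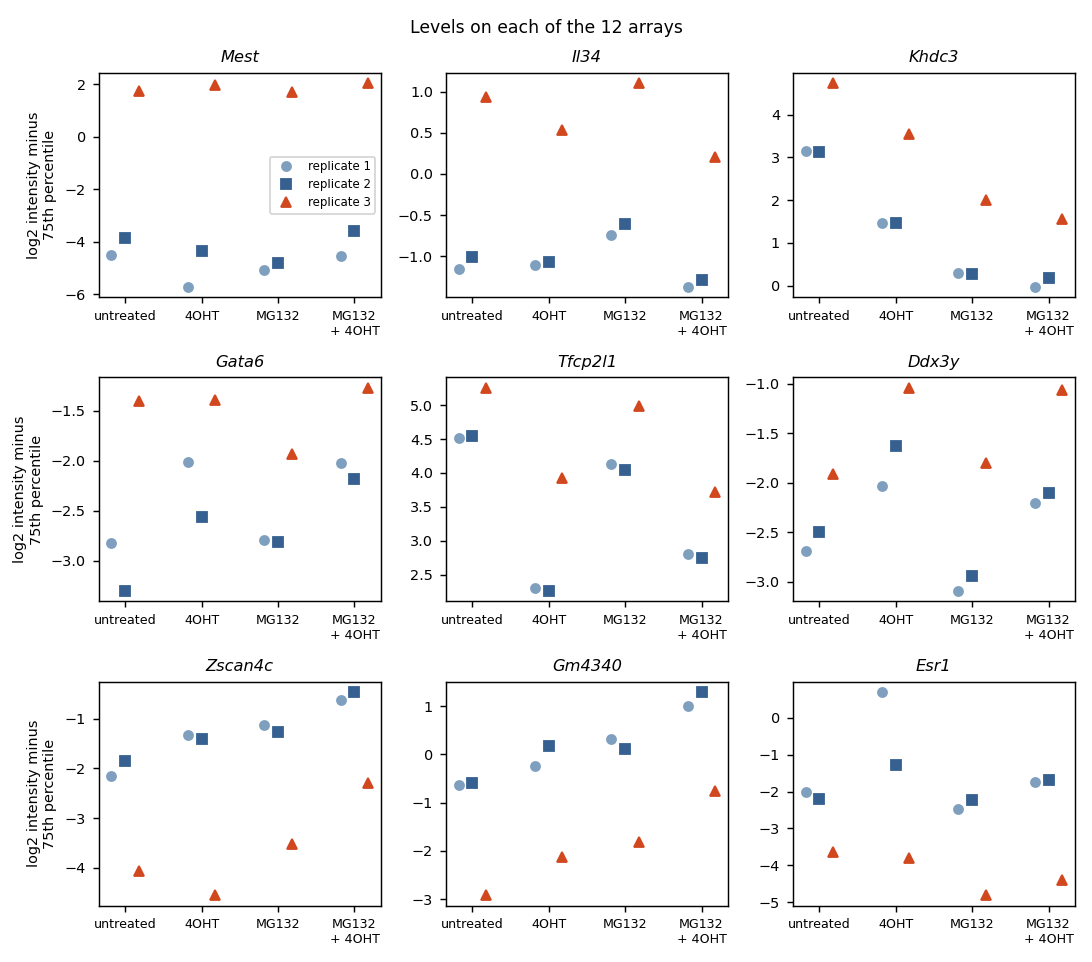
Level on every array (y axis, log2 intensity minus the 75th percentile of the array) for 9 genes, by treatment group (x axis) and replicate number (circles 1, squares 2, triangles 3); each panel has its own y scale and no error bars, since each point is a single array. The triangle lies beyond the circle and the square in all 4 groups of every panel, upwards for Mest, Il34, Khdc3, Gata6, Tfcp2l1 and Ddx3y and downwards for Zscan4c, Gm4340 and Esr1.

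Of the 15 genes with the largest differences in the lower direction, 8 were on the list of the 2-cell-like state. Zscan4c, a zinc finger gene that acts in telomere maintenance, read -4.07 in untreated cells, -4.56 with 4OHT, -3.52 with MG132 and -2.29 with both on the replicate 3 arrays. The partners read -2.15 and -1.85, -1.33 and -1.40, -1.12 and -1.26, and -0.61 and -0.46. Replicate 3 lay below its partners in every group, although replicate 3 with both compounds came close to the untreated partners. The difference was -2.34 ± 0.19, a 5.05-fold lower signal. Zscan4a (-2.45 ± 0.16), Zscan4b (-2.35 ± 0.15) and Zscan4f (-2.35 ± 0.16) followed the same course. These genes are near copies, and the array probes may read more than 1 of them, so their values are not independent. The promoters of 3 of them, from RefSeq on GRCm38.p6, are printed to show how alike they are; capitals mark the TATA box TATAAA. They lie at chr7:10905001-10905300 (Zscan4b, minus strand), chr7:11005495-11005794 (Zscan4c, plus strand) and chr7:11397665-11397964 (Zscan4f, plus strand).

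Zscan4b: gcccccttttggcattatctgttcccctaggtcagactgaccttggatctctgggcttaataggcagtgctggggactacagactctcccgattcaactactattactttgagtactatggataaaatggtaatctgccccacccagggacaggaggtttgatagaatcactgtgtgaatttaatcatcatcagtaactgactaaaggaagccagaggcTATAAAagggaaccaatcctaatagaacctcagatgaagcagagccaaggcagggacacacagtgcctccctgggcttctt
Zscan4c: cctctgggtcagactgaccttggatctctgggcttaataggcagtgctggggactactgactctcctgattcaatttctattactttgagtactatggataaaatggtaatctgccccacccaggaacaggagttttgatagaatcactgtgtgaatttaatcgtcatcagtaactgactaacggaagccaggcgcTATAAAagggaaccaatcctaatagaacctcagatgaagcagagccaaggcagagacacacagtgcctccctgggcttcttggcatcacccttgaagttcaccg
Zscan4f: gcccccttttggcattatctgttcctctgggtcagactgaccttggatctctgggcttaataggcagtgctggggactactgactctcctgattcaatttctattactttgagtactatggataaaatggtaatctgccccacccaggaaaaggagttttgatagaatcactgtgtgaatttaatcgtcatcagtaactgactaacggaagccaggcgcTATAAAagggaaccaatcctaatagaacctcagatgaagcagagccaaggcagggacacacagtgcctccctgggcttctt

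Over the aligned stretch, Zscan4c and Zscan4f shared 99.3% of bases, Zscan4b and Zscan4f 95.7%, and Zscan4b and Zscan4c 95.3%. TATAAA on either strand was found in 6 of 14 listed genes of the 2-cell-like state with a promoter in the table (42.9%) and in 1451 of 13135 genes tested that had one; a match is a description of the letters only.

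Of 35 listed genes of the 2-cell-like state 19 were measured, of which 10 were set apart lower, all at 2-fold, and 0 higher, with a median of -1.49. Over all genes 6.97% were set apart lower and 0.409% lower at 2-fold. Beside the Zscan4 genes the lower members were Gm4340 (-2.09 ± 0.10), AF067061 (-2.12 ± 0.11), Tcstv3 (-2.0 ± 0.11), Usp17lb (-2.18 ± 0.34), Gm21319 (-1.71 ± 0.23) and Gm8300 (-1.49 ± 0.21). Gm4340, a member of a multicopy family of the 2-cell embryo, read -2.92, -2.13, -1.82 and -0.76 on the replicate 3 arrays in the order of treatments above, and -0.63 to 1.29 on their partners. Gm20767, which is not on the list and adjoins AF067061, was lower to the same degree (-1.95 ± 0.11). Not every gene of the state was lower: Zfp352, a zinc finger gene of the 2-cell embryo, was detected on all 12 arrays and differed by -0.11 ± 0.08, and Sp110 by 0.09 ± 0.06. With normexp the median of the list was -0.20 and Zscan4c differed by -1.09.

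Esr1 had the largest lower difference among set-apart genes with a symbol. It encodes the oestrogen receptor alpha, whose ligand-binding domain binds 4OHT. Replicates 1 and 2 read -2.01 and -2.21 in untreated cells, 0.71 and -1.27 with 4OHT, -2.47 and -2.24 with MG132, and -1.75 and -1.70 with both, against -3.65, -3.81, -4.82 and -4.41 on the replicate 3 arrays. The signal of replicate 3 lay below both partners in each group and was well above background on all 12 arrays (-2.56 ± 0.38). Whether the probe reads the endogenous gene, a transgene or both was not tested.

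The remaining genes of this class were Mal2 (-2.14 ± 0.34), a membrane trafficking gene, Gm38423 (-2.17 ± 0.23) on chromosome 4, and Serpinb9f, a serine protease inhibitor gene that was not well above background on any replicate 3 array and was at least 1.27-fold lower there. Serpinb9f thus passed the filter on dim probes only through the partner arrays, where it was high. Mal, a myelin and lymphocyte membrane gene, met the rule at -2.46 ± 0.89, and 2010315B03Rik at -2.33 ± 1.75. 4OHT replicate 2 was the highest array for both (5.76 and 5.28), and without that array 2010315B03Rik differed by -1.01; without 4OHT replicate 3 it differed by -0.92 and Mal by -1.56.

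Many genes of primitive endoderm were higher. Of 25 measured genes on that list 11 were set apart higher and 2 lower, with a median of 0.51, against 10.5% and 6.97% of all genes. Gata6, the transcription factor that specifies the lineage, read -1.40, -1.39, -1.93 and -1.27 on the replicate 3 arrays of untreated, 4OHT, MG132 and MG132 with 4OHT. All 4 lay above the 8 partners, which read between -3.31 and -2.02 (1.07 ± 0.17). Pdgfra, a growth factor receptor of the lineage, was higher by 1.33 ± 0.21, the endocytic receptor gene Cubn by 1.34 ± 0.14 and its adaptor gene Dab2 by 1.14 ± 0.22. Foxa2 (0.89 ± 0.14), Gata4 (0.56 ± 0.16) and the basement membrane collagens Col4a1 (0.85 ± 0.10) and Col4a2 (0.93 ± 0.15) were also set apart higher, while Sox17 (0.51 ± 0.37) and Sox7 (0.82 ± 0.23) were not set apart. The lower members were the keratin genes Krt8 (-0.63 ± 0.07) and Krt18 (-0.72 ± 0.17), which other epithelial cells also express. The mean level of the list on the replicate 3 arrays was 0.11 to 0.68, and on the others -0.65 to 0.38.

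Markers of other cell types that could be present were also examined, beside shares of 10.5% higher and 6.97% lower over all genes. Of 13 fibroblast and feeder genes 3 were higher and 0 lower (median 0.14). The median of this list was 0.17 in untreated cells, 0.58 with 4OHT, 0.43 with MG132 and -0.03 with both, against 0.73, 0.48, 0.33 and 0.45 for primitive endoderm. Its mean level was -1.60 to -0.43 on the replicate 3 arrays and -1.83 to -0.62 on the others. Col3a1 was well above background on 1 array and Twist2 on 0 of 12, while Thy1, Col1a2 and Twist1 were detected on all 12. Col1a1 (0.70 ± 0.07) and Pdgfrb (0.95 ± 0.25; 0.54 without 4OHT replicate 3) were set apart higher. Of 14 trophoblast genes 3 were higher and 2 lower (median -0.05), and of 15 mesendoderm genes 3 were higher and 0 lower (median 0.26, but 0.02 without MG132 with 4OHT replicate 3, 0.14 without replicate 2 of that group and 0.16 without 4OHT replicate 3). The part of such cells in the differences above was not tested.

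Some neural and formative genes were lower. The counts here stand beside 10.5% of all genes set apart higher and 6.97% lower. Of 13 measured neural progenitor genes 6 were lower and 0 higher, with a median of -0.44 (-0.07 with normexp). Within the groups the median was smaller, at -0.20 in untreated cells, -0.15 with 4OHT, -0.24 with MG132 and -0.31 with both. Members ranged from -0.84 to 1.30, and the neural marker Sox1 read -2.59 on the replicate 3 arrays against -2.95 on the others. The mean level of the list was lower in replicate 3 than in both partners in 3 of 4 groups, but with 4OHT it was -2.33 against -2.52 and -2.55. The transcription factor Sox3 differed by -0.60 ± 0.06, the filament gene Nes by -0.61 ± 0.12, the Notch ligand Dll1 by -0.50 ± 0.18 and the Notch target Hes5 by -0.49 ± 0.13. When untreated replicate 3 was left out, the Dll1 difference was -0.31. Of 20 formative and primed epiblast genes 7 were lower and 0 higher, among them the zinc finger genes Zic2 (-0.78 ± 0.13) and Zic5 (-0.70 ± 0.17) and the Wnt effector Lef1 (-0.71 ± 0.10), but the median was -0.05. Of 20 naive pluripotency genes 6 were higher and 3 lower (median 0.07): Tfcp2l1, a transcription factor of the naive state, at 1.06 ± 0.13, Klf2 at 0.54 ± 0.19, Nr5a2 at 0.44 ± 0.12, and Zfp42 at -0.27 ± 0.07. Nanog (0.04 ± 0.10) and Klf4 (0.16 ± 0.22) were not set apart, and without 4OHT replicate 3 the Klf2 difference was 0.28 and that of Esrrb moved from 0.18 to 0.07.

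Metabolic and stress genes differed by less than 2-fold with 2 exceptions among those named. Of 24 cholesterol synthesis genes 14 were set apart higher and 2 lower, with a median of 0.25, against 10.5% and 6.97% of all genes. The higher ones spanned the pathway, from Hmgcs1 (0.24 ± 0.07) at its start over Pmvk (0.65 ± 0.08), which makes mevalonate diphosphate, to Ebp (0.45 ± 0.09) and Dhcr7 (0.47 ± 0.06) among the last steps. Fatty acid genes were higher in 4 of 14 and lower in 1, with Scd1, the stearoyl desaturase gene, at 0.73 ± 0.08 and the lipogenic regulator Thrsp at 1.11 ± 0.21.

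Among 24 genes of the ATF4 stress response, by which cells adapt to amino acid shortage, 7 were lower and 1 higher (median -0.33). The median was -0.42 in untreated cells, -0.02 with 4OHT, -0.42 with MG132 and -0.43 with both. Vldlr, a lipoprotein receptor gene, differed by -1.08 ± 0.07 and Stc2, a secreted glycoprotein gene, by -0.78 ± 0.05. Stc2 was lower in each group, by log2 differences of -0.90, -0.72, -0.72 and -0.78 in the order above. Atf4 itself differed by -0.34 ± 0.08. Of 22 NRF2 and metal response genes 7 were lower and 2 higher (median -0.17): the quinone reductase gene Nqo1 differed by -0.85 ± 0.08, the sulfiredoxin gene Srxn1 by -0.77 ± 0.13, and the metallothionein genes Mt1 and Mt2 by -0.65 ± 0.08 and -0.67 ± 0.11. Glycolysis and hypoxia genes were lower in 7 of 27 and higher in 2, with the mitophagy gene Bnip3 at -0.81 ± 0.11. For these 3 lists the shares over all genes were 6.97% lower and 10.5% higher.

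Housekeeping and checkpoint lists are given beside the shares over all genes (10.5% higher and 6.97% lower; 17% and 8.29% in the brightest bin). Of 41 proteasome genes 12 were higher and 3 lower (median 0.09), with the assembly factor Psmg4 at 0.61 ± 0.15 and the activator Psme4 at -0.60 ± 0.15; without 4OHT replicate 3 the latter was -0.38. Of 27 ribosomal protein genes 6 were higher and 0 lower, at a median of 0.09 against 0.04 for all genes (0.03 and 0.02 with quantile normalization). Cytosolic heat shock genes were higher in 2 of 25, p53 targets higher in 5 and lower in 2 of 25, and mitotic genes lower in 3 and higher in 1 of 21. Of 23 immediate-early genes of the ERK pathway 5 were lower and 0 higher (median -0.19), and 3 of 23 feedback genes and ETS targets were lower and 1 higher (median -0.16, and -0.07 without 4OHT replicate 3). In untreated cells neither list was lower, with medians of 0.01 for the immediate-early genes and 0.11 for the feedback genes. The immediate-early median was -0.47 with 4OHT, -0.31 with MG132 and -0.19 with both, and the feedback median was -0.30, -0.19 and -0.15. Egr1 (-0.32 ± 0.13), Spry4 (-0.30 ± 0.13) and Dusp6 (0.18 ± 0.13) were not set apart.

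Over all genes 17.4% were set apart in either direction, and the remaining signalling and structural lists are given against that share. Of 16 general pluripotency genes 2 were higher and 3 lower, with the adhesion gene Epcam at -0.85 ± 0.09, and of 17 LIF and STAT3 targets 3 were higher and 0 lower, with Stat3 itself at 0.40 ± 0.11. Nodal, Lefty and activin genes were higher in 2 of 14 and lower in 0, and BMP and SMAD genes higher in 3 and lower in 2 of 15, with the ligand gene Bmp7 at 0.84 ± 0.08. Wnt targets were higher in 2 and lower in 2 of 16. Of 11 interferon response genes 3 were higher and 0 lower, with the antiviral enzyme gene Oas1a at 0.88 ± 0.10. Cytoskeletal SRF and YAP targets were lower in 6 of 17 and higher in 1, with the myosin light chain gene Myl9 at -0.89 ± 0.11 and the matrix gene Ccn1 at 0.70 ± 0.09. Basement membrane and matrix genes were higher in 5 and lower in 3 of 21.

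**Figure D3:**
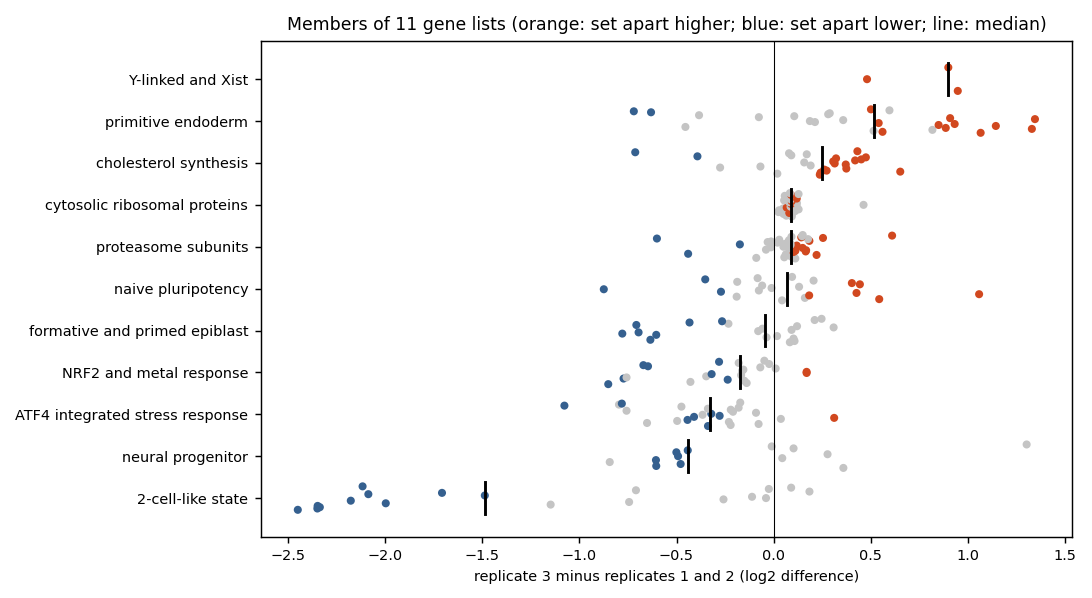
Replicate 3 minus replicates 1 and 2 (x axis, log2 difference averaged over the 4 treatment groups) for each measured gene of 11 lists (y axis); orange points were set apart higher, blue lower, grey neither, and the black line is the median of the list. Mest is on none of these lists; the 2-cell-like genes lie lowest (median -1.49) and 11 primitive endoderm genes lie apart on the higher side (median 0.51).

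Of 8 measured genes on the Y chromosome 3 were set apart higher and 0 lower. Ddx3y, an RNA helicase gene, read -1.91, -1.04, -1.80 and -1.06 on the replicate 3 arrays and -3.10 to -1.63 on the others, above both partners in each group (0.95 ± 0.11). The histone demethylase gene Uty was higher by 0.90 ± 0.16 and the translation factor gene Eif2s3y by 0.48 ± 0.06, and these were the 3 listed Y-linked genes that were measured. Of the other 5, the germ cell gene Rbmy differed by 0.93, and Gm20736, Gm21996, H2al2b and Sly by 0.12 to 0.21; none of the 5 was set apart. The X chromosome was not higher as a whole, with a median of -0.01. Of its 589 genes 59 were higher (10%) and 79 lower (13.4%), against 10.5% and 6.97% of all genes. The shares of all genes include genes without a position. On the autosomes other than 1 and 4, 9.17% to 13.8% of genes were higher and 5.08% to 11.6% lower.

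Apart from the gene lists, the differences were uneven along the chromosomes. Genes were placed in the order of the GRCm38.p6 annotation, and each chromosome was divided into successive windows of 40 measured genes, 405 in all; this was done after the chromosome medians had been seen. In 393 windows the median difference lay between -0.16 and 0.17. The other 12 lay outside 0.25 on either side and formed 2 unbroken stretches, 1 on chromosome 1 and 1 on chromosome 4. In single treatment groups the windows outside these stretches ranged from -0.27 to 0.40. Between replicate 2 and replicate 1 the medians of all 405 windows lay between -0.11 and 0.04.

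**Figure D4:**
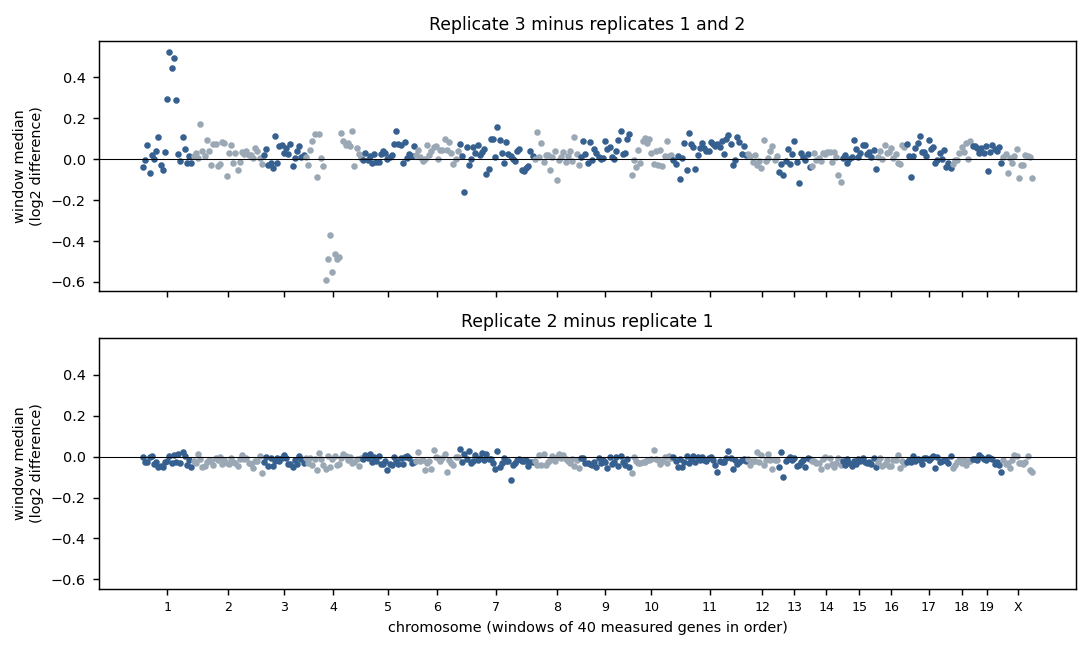
Median log2 difference (y axis) of successive windows of 40 measured genes along the chromosomes (x axis, alternating colours), for replicate 3 minus replicates 1 and 2 (top) and replicate 2 minus replicate 1 (bottom). In the top panel 5 windows of chromosome 1 lie at 0.29 to 0.52 and 7 of chromosome 4 at -0.59 to -0.37, and all others lie between -0.16 and 0.17; in the bottom panel all lie between -0.11 and 0.04.

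The stretch on chromosome 1 ran from Ing5 to Rgsl1 over 200 measured genes, of which 96 (48%) were set apart higher and 4 (2%) lower, with a median of 0.44 or 1.35-fold. Elsewhere on chromosome 1 the share set apart higher was 10.7%. Both stretches were picked by these same differences, so a contrast of shares inside and outside follows from the choice and is no test. In the 4 treatment groups the median of the stretch was 0.39 in untreated cells, 0.37 with 4OHT, 0.48 with MG132 and 0.41 with both. Its 3 central windows, from Cfap221 to Ptprc, had medians of 0.45 to 0.52, and those just outside, ending at Dtymk and starting at Teddm2, had 0.04 and 0.03. The median between replicate 2 and replicate 1 was -0.02. Of 114 genes above the median level of all genes 80 were set apart higher, and of 86 dimmer ones 16, with medians of 0.50 and 0.18.

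The stretch on chromosome 4 started at Eqtn and ran over 280 measured genes, of which 174 (62.1%) were set apart lower and 3 (1.07%) higher. The median was -0.48, a level 0.715 times that of replicates 1 and 2. Elsewhere on chromosome 4 the share set apart lower was 8.47%, a contrast that again follows from how the stretch was picked. The median of the stretch was -0.46 in untreated cells, -0.40 with 4OHT, -0.52 with MG132 and -0.55 with both, and -0.02 between replicate 2 and replicate 1. The edges were abrupt at this scale: the window ending at Tek had a median of -0.03 and the next, starting at Eqtn, -0.59, while the last window of the stretch had -0.48 and the window after it 0.13. Brighter genes showed it more often: of 187 genes above the median level of all genes 151 were set apart lower, and of 93 dimmer ones 23, with medians of -0.50 and -0.33.

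**Figure D5:**
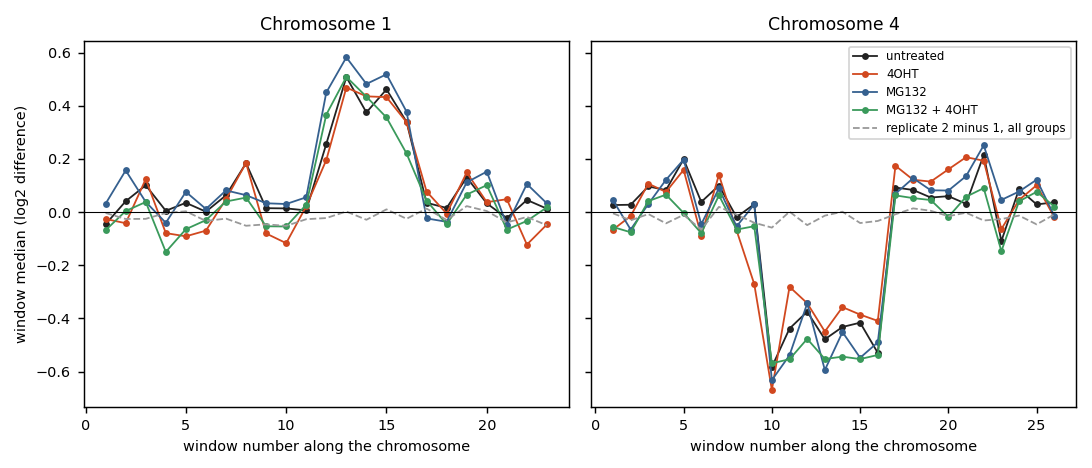
Median log2 difference (y axis) of windows of 40 measured genes, numbered along chromosome 1 (left) and chromosome 4 (right) on the x axis, for replicate 3 minus its partners in each treatment group (solid lines) and for replicate 2 minus replicate 1 over all groups (dashed grey). In all 4 groups windows 12 to 16 of chromosome 1 lie between 0.20 and 0.58 and windows 10 to 16 of chromosome 4 between -0.67 and -0.28, while the dashed line stays near 0.

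The stretches held genes of several of the lists above. On chromosome 1 these included Tfcp2l1, which read 5.26, 3.93, 4.99 and 3.72 on the replicate 3 arrays against 4.52 and 4.54, 2.30 and 2.25, 4.14 and 4.04, and 2.81 and 2.74. Nr5a2, Inhbb, the p53 targets Btg2 (0.88 ± 0.12) and Phlda3 (0.85 ± 0.08), and the pluripotency cofactor Zfp281 (0.34 ± 0.06) lay there too. On chromosome 4 they included the immediate-early gene Jun (-0.91 ± 0.19), the p53 target Plk3 (-0.70 ± 0.14), the formative factor Pou3f1 (-0.63 ± 0.09), the glucose transporter gene Slc2a1 (-0.57 ± 0.09), the mitotic activator Cdc20 (-0.54 ± 0.06), the pluripotency gene L1td1 (-0.54 ± 0.06) and the proteasome subunit gene Psmb2 (-0.44 ± 0.07).

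Most of the other differences lay elsewhere. Without the genes of the stretches, 2895 genes were set apart higher and 1815 lower, and 150 and 100 at 2-fold. None of the measured genes of the 2-cell-like, ATF4, Y-linked, imprinted or neural lists lay in a stretch, and 1 primitive endoderm gene did. Adjacent genes also formed smaller groups: among the 189 2-fold genes with a position, 14 pairs of neighbours shared a direction and 0 opposed each other. These included Cyp2b10 with Cyp2b9, Casq1 with Atp1a4, Slc2a5 with Slc2a7, and the Zscan4 genes, some of which are similar in sequence. The 14 pairs also include Fggy with Hook1, which lay in the stretch on chromosome 4.

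A promoter was matched for 13135 of the genes tested. The median number of CG dinucleotides was 20 in genes set apart higher, 21 in those lower and 19 in all, while the 2-fold genes had fewer (6 among 85 higher and 10 among 69 lower). The ATF4 composite motif TGATGNAA on either strand was found in 3.2% of higher, 2.96% of lower and 3.1% of all genes, and the antioxidant motif TGACNNNGC in 264 of 1595 higher, 225 of 1181 lower and 2137 of 13135 genes in all. In the ATF4 list 33.3% of 21 promoters held TGATGNAA and in the NRF2 list 52.9% of 17 held TGACNNNGC.

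The last comparison asked whether the replicate 3 difference itself depended on the compounds. limma called 0 of 28579 genes (0%) for the difference with 4OHT against without it, with 2950 genes (10.3%) under an unadjusted p of 0.05 and a lowest adjusted p of 0.0678. For MG132 it also called 0 (0%), with 3197 genes (11.2%) unadjusted and a lowest adjusted p of 0.0699. The fits had 4 residual degrees of freedom. Leaving out single arrays gave 0 to 1284 calls for 4OHT and 0 to 1087 for MG132, the highest without 4OHT replicate 2. The 4OHT count was over 0 also without 4OHT replicates 1 or 3, MG132 replicate 2 or MG132 with 4OHT replicate 3, and the MG132 count without untreated replicate 3, 4OHT replicate 1, or MG132 replicates 2 or 3.

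Among the genes with the largest differences the Mest difference with 4OHT exceeded that without by 0.26 ± 0.68 (adjusted p = 0.93 in limma), and with MG132 by -0.10 ± 0.68 (adjusted p = 0.967). For Zscan4c the values were -0.27 ± 0.16 and 0.59 ± 0.16 (adjusted p = 0.647 and 0.327 in limma), and for Esr1 -1.10 ± 0.75 and -0.04 ± 0.75 (0.689 and 0.988). Targets of ERK signalling had 4OHT terms of -0.15 ± 0.14 for Egr1, -0.26 ± 0.16 for Spry4 and 0.10 ± 0.25 for Dusp6. The Inhbb difference was 2.93 under 4OHT against 1.00 to 1.55 in the other groups (4OHT term 0.71 ± 0.11, adjusted p = 0.152 in limma; MG132 term -1.22 ± 0.11, adjusted p = 0.147). These terms rest on few degrees of freedom, and a p above the threshold does not show that the differences were equal.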

How the data were processed

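Total RNA was measured on 12 single-channel arrays. For every array the authors deposited the output of the Agilent software Feature Extraction (version 11.0.1.1). Its processed intensity column is background-subtracted within the array, per the file headers, and the series-wide values held identical numbers. From each array's 62976 spots, 3671 control spots and spots marked as outliers were left out, spots of 1 probe were averaged (56605 probes), and log2 intensity minus the array's 75th percentile (309 to 485 units) was taken as the level. Probes that lay well above background on at least 3 of 12 arrays were kept (36439), and each gene took its brightest probe, giving 28579 genes, 16616 with a symbol. Accessions were matched to RefSeq names of GRCm38.p6; 32994 probes (58.3%) received a symbol. The design of the array uses an older build, so GRCm38.p6 served for gene order, names and promoters only.

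limma 3.58.1 (R 4.3.3, with the data.table package, version 1.17.8) was fitted over all 12 arrays, with the treatment group as a block for the replicate 3 difference (7 residual degrees of freedom) and replicate number for replicate 2 against 1 (6), and 1 coefficient per group and replicate 3 status for the compound terms (4). P-values were Benjamini-Hochberg adjusted at a threshold of 0.05. Array measures had exact permutation tests. The scripts were tested on simulated data. Python 3.11.15, Biopython 1.88 and matplotlib 3.10.9 were used for promoters, local alignment and plots.

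The members, the 34 gene lists and the tests were chosen with earlier results of these data known. Genes were named by rule: the 15 largest 2-fold differences in each direction among genes with a symbol, up to 4 set-apart members per list with the largest difference, the largest called genes of each test, and 20 fixed genes, of which Xist was not measured. Other genes (among them Hmgcs1, Atf4, Gm21319, Gm8300, Zfp352, Sp110, Sox7, Inpp5f and those naming windows or neighbours) were chosen after their values were seen. Same-numbered arrays correlated over 0.1 in 5 of 6, 3 of 6 and 1 of 6 pairs for numbers 3, 2 and 1. No label pairs the samples by number, and the numbers were not treated as pairing them. Whether the replicate 3 arrays share a culture was not tested. Some genes are not reported here.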

Additional observations from a re-analysis of the deposited data

How the results depend on the processing

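The 4 counts of set-apart genes, the 3 counts of calls, the gene list and chromosome medians and the named genes were recomputed under 15 planned settings, without each of the 12 arrays, and, chosen after seeing the data, without the genes of the chromosome stretches or with windows of 20 or 80 genes. Of 952 list medians under these settings 932 moved by less than the spread between groups and 20 by more. Some settings could not move a list median. The series-wide values were identical, and a trend with robust variance leaves the differences as they are. The replicate block changes no difference of a gene with values on all 12 arrays. Leaving out the 4OHT or MG132 group repeats leaving out its replicate 3 array. The 932 therefore includes outcomes fixed in advance. The sign of the median turned in 8 settings for maternally expressed imprinted genes, 7 each for heat shock and methylation-sensitive germline genes, 4 for trophoblast, 3 each for naive and formative genes, 2 for Wnt targets and 1 for paternally expressed imprinted genes. With normexp, on median signals with an offset of 50, 2-fold counts were 17 higher and 17 lower, and the compound terms had 25 (4OHT) and 2 (MG132) calls. With probes detected on all 12 arrays the counts were 56 and 54, with 78 and 3 calls. A trend with robust variance gave 156 and 30 calls, and a filter on all arrays of 1 treatment group gave 1 call for MG132. On slide 1 alone, where fewer arrays have to lie apart, 6062 genes were set apart higher and 4243 lower (336 and 386 at 2-fold). Without the 4OHT group the counts were 4944 and 3570, and without the MG132 group 191 genes were lower at 2-fold. Leaving out 1 array gave 3174 to 4944 higher and 2092 to 3570 lower genes (highest without 4OHT replicate 3), 162 to 228 and 118 to 191 at 2-fold, 0 to 1284 and 0 to 1087 calls for the compound terms, and 0 for replicate 2 against 1. The replicate block gave 0 calls for both compound terms, and replicate 2 against 1 without it gave 0 calls; the counts of set-apart genes use no fitted model, so it cannot change them. Slide as a block could not be fitted with the compound terms, and the MG132 term could not be formed on slide 1. The medians of the stretches ranged from 0.27 to 0.46 (chromosome 1) and -0.53 to -0.39 (chromosome 4) over these settings. With windows of 20 or 80 genes, all 22 and all 6 windows past 0.25 had their first or last gene in a stretch. Windows of 80 genes can reach beyond the ends of a stretch, so they do not check its edges. The median over all genes was 0.04 and fell below 0 (-0.03) with no filter on dim probes.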
